A study of Homo sapiens with 4 samples.

Results

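The 9 genes described here were NFE2L2, which encodes the transcription factor NRF2, its regulators KEAP1, BACH1 and MAFG, and 5 classical NRF2 targets, NQO1, HMOX1, SRXN1, PGD and ME1. They were picked by name, outside the glutathione and thioredoxin systems, from the 23228 gene symbols of the count tables, and all 9 had enough counts to be among the 12706 genes tested. RNA was sequenced from ES2, an established human ovarian cancer cell line grown in RPMI medium with serum. One group received EC359, a small-molecule inhibitor of the LIF receptor (LIFR), at 10 nM for 12 h, and the other received vehicle (0.1% DMSO) for 12 h. Each treatment had 2 libraries, which the study treats as biologically independent, and all came from this single line at a single dose and time. The libraries held from 25572494 to 31707553 counts on genes.

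NRF2 is the main activator of antioxidant and detoxifying genes. In unstressed cells KEAP1 holds NRF2 to a CUL3 ubiquitin ligase, which has it degraded, and oxidants or electrophiles that modify KEAP1 let NRF2 build up. NRF2 then pairs with a small MAF protein such as MAFG on antioxidant response elements, which BACH1, a heme-sensitive repressor, occupies in its absence. Because NRF2 is controlled largely at the level of the protein, the libraries measured the transcripts of the pathway and not the amount or activity of NRF2 itself. The comparison of EC359 with vehicle addressed how these transcripts stood after 12 h with the inhibitor. The degree of LIFR inhibition in these libraries was not measured here.

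The label of an ovarian cancer line was compared with marker genes in CPM, the counts of a gene scaled to a common library total. KRT7 and KRT18, keratins of simple epithelia, ranged from 263 to 288 and from 248 to 275 CPM over the 4 libraries, and KRT8 from 21.9 to 24.1 CPM. KRT19, a keratin of the same kind, and the adhesion genes EPCAM and CDH1 stayed under 1 CPM in every library. The mesenchymal genes VIM and FN1 stood far above the keratins. VIM had 5350 and 5590 CPM with vehicle and 4800 and 4930 CPM with EC359, and FN1 ranged from 2250 to 2290 CPM. PAX8, a Mullerian factor, ranged from 0.945 to 1.36 CPM and WT1 from 2.99 to 4.14 CPM, while MUC16 had no count. The leukocyte markers PTPRC and CD3E were at or near 0, and CD68 ranged from 89.6 to 96.3 CPM. Among endothelial markers PECAM1 and VWF were under 1 CPM, whereas CDH5 ranged from 123 to 131 CPM.

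RefSeq promoter windows were searched on both strands for TGACNNNGC, the core of the antioxidant response element, which reads GCNNNGTCA on the other strand. Each window had 300 bases, 250 before and 50 after a transcription start. Windows were found for 8 of the 9 genes, 12 windows in all, from a RefSeq table built on GRCh38.p14, and each was then placed on GRCh37 (hg19) by an exact match. HMOX1 had no entry in that table. The core occurred in 3 of the 12 windows, those of KEAP1, PGD and ME1, and in 13.4% of all 35093 promoter windows. The windows of the targets NQO1 and SRXN1 held none. A match to this short core does not show that NRF2 binds there, and elements farther from a start were not searched. The stretches below are written along the gene, with the matched letters in capitals and 10 bases on each side.
ME1, chr6:84140889-84140917, minus strand: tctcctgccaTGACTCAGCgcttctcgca
PGD, chr1:10458910-10458938, plus strand: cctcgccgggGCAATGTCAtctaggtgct
KEAP1, chr19:10613483-10613511, minus strand: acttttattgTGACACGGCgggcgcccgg
KEAP1, chr19:10613460-10613488, minus strand: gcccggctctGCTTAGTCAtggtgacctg

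The ME1 match lay at positions -137 to -129 from the start, outside the 1 annotated ME1 transcript. Its letters also hold TGACTCA, an AP-1 type element, which with TGAGTCA occurred in 4.95% of all windows and, among the other members, in a BACH1 window. The PGD match lay at positions -201 to -193, within an intron of 1 of 10 annotated PGD transcripts and outside the other 9. Both KEAP1 matches belonged to an alternative start inside the gene, at positions -54 to -46 and -31 to -23 from it. There 1 of 10 annotated KEAP1 transcripts had an exon and 3 had an intron, and the matches lay outside the other 6. A second ME1 match lay after the start and is not shown. With the 50 bases after the start left out, the same number of windows, 3, held the core.

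The transcripts of NRF2, its regulators and its targets differed from vehicle by small amounts, about as large as those of all tested genes. The threshold for a call was 0.01 for p from the quasi-likelihood test of edgeR, adjusted over all tested genes by the Benjamini-Hochberg method. None of the 9 genes passed (0 of 9), against 1.09% of all tested genes, and their adjusted p values ran from 0.079 to 0.945. At an unadjusted p under 0.05, 3 of the 9 passed, against 21.6% of all tested genes. Of these, KEAP1 was the 1 gene with a higher mean (10.7% of all tested genes), and SRXN1 and PGD were the 2 with a lower mean (11% of all tested genes). Log2 fold changes of EC359 over vehicle ran from -0.12 to 0.12, with a median of 0.021 beside 0.0029 for all tested genes. The median absolute log2 fold change was 0.097 for the 9 genes and 0.091 for all tested genes. The 95% intervals of all 9 lay between -0.20 and 0.30 on the log2 scale, which corresponds to 0.869-fold and 1.23-fold of vehicle. The smallest absolute log2 fold change called in this fit was 0.17, and the intervals of 4 of the 9 genes reached past it. The lack of a call therefore does not show an unchanged level. In bulk RNA, fewer cells with a transcript and less of it per cell cannot be told apart.

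**Figure D1:**
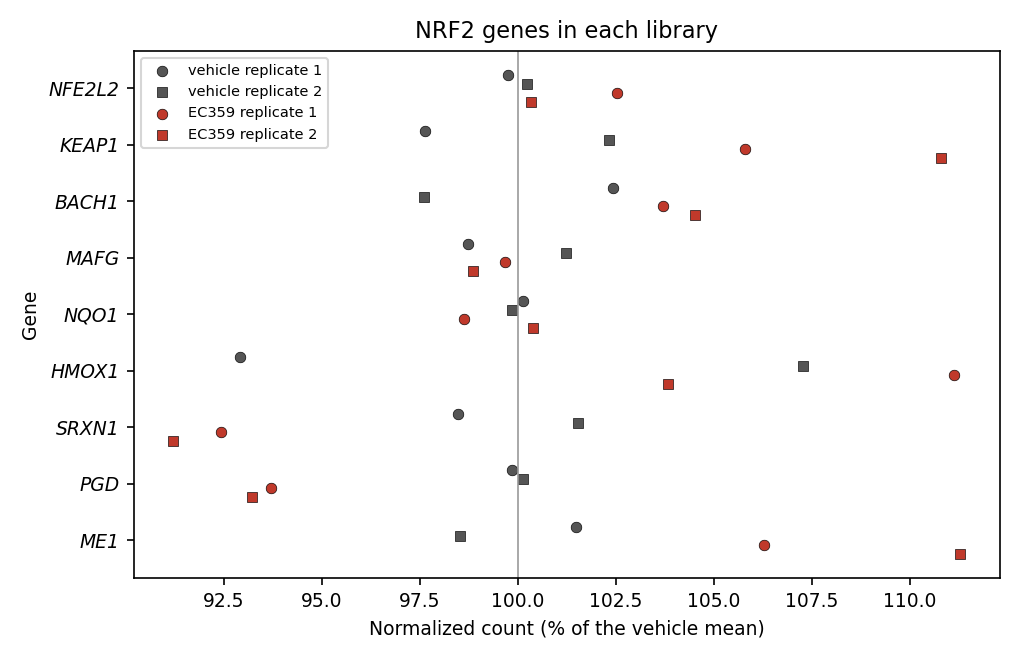
Normalized count of each of the 9 genes in each of the 4 libraries, as a percentage of the mean of the vehicle libraries (x axis); grey marks are vehicle, red marks EC359, circles replicate 1 and squares replicate 2. SRXN1 and PGD lie to the left of both vehicle libraries in both EC359 libraries, KEAP1 and ME1 lie to the right, and MAFG, NQO1 and HMOX1 overlap.

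NFE2L2, the gene for NRF2 itself, lies on chromosome 2 of GRCh37, from 178083395 to 178257484 in the GENCODE gene set. Its RefSeq promoter windows lay inside this span, the outer one ending at 178129705. NFE2L2 had 3036 and 3051 normalized counts in the vehicle libraries and 3121 and 3054 in the EC359 libraries. Normalized counts are counts at the mean library size. EC359 replicate 2 stood level with vehicle replicate 2, so that the treatments were barely apart. The mean was 3044 ± 10.4 in vehicle libraries and 3088 ± 47.3 under EC359 (SD, n = 2 each), and the 95% interval of the log2 fold change, 0.021, ran from -0.068 to 0.11. Exons annotated for NFE2L2 overlap those of AGPS and HNRNPA3 on the opposite strand. The strand setting of the counting is not given in the sources used here, and the part of such reads in the counts was not tested.

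KEAP1, the substrate adaptor that presents NRF2 to the CUL3 ligase, lies on chromosome 19 from 10596801 to 10614234. It had 1774 and 1859 normalized counts with vehicle and 1922 and 2013 with EC359. The treatments did not overlap, with EC359 the higher. The log2 fold change was 0.11 (standard error 0.051, 95% interval 0.0016 to 0.23), with an adjusted p of 0.226 in the edgeR quasi-likelihood fit, and KEAP1 was not called. KEAP1 shared no 50-base window of its longest transcript with annotated transcripts of genes elsewhere in the genome.

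BACH1, the repressor that competes for the same elements and leaves DNA when heme binds it, lies on chromosome 21 from 30566392 to 31003071. It had 2271 and 2164 normalized counts with vehicle and 2299 and 2317 with EC359. The EC359 libraries were the 2 higher ones, but the gap to vehicle replicate 1 was smaller than the distance between the vehicle libraries. The log2 fold change was 0.058, with a 95% interval from -0.045 to 0.16 and an adjusted p of 0.511. It was 0.018 without vehicle replicate 2 and 0.093 without vehicle replicate 1. Its annotated exons overlap GRIK1 on the opposite strand, a gene with too few counts to be tested.

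MAFG, a small MAF protein that pairs with NRF2 and also with BACH1 and is itself an NRF2 target, lies on chromosome 17 from 79876146 to 79885611. It had 2324 and 2383 normalized counts with vehicle and 2346 and 2327 with EC359. The EC359 libraries fell between the vehicle libraries. The log2 fold change was -0.011, with a 95% interval from -0.11 to 0.086 and an adjusted p of 0.922. The sign of this difference was positive with total counts only and with the trend against GC content removed. Exons of MAFG overlap those of SIRT7 on the same strand in the annotation.

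NQO1, a quinone reductase that is often read as the reporter gene of NRF2 activity, lies on chromosome 16 from 69740899 to 69760571. It had 3072 and 3063 normalized counts with vehicle and 3026 and 3080 with EC359. The treatments overlapped. Of the 9 genes NQO1 had the difference nearest to 0, with a log2 fold change of -0.0071 and a 95% interval from -0.095 to 0.081. Its sign was positive with total counts only and with the trend against transcript length removed. Of the 50-base windows of the NQO1 transcript, 2.1% also occur in annotated transcripts of genes elsewhere.

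HMOX1, the inducible heme oxygenase that breaks heme down to biliverdin, iron and carbon monoxide, is controlled by NRF2 and strongly repressed by BACH1. It lies on chromosome 22 from 35776354 to 35790207. It had the fewest counts of the 9 genes, 485 and 560 normalized counts with vehicle and 580 and 542 with EC359. The low value was that of vehicle replicate 1, and vehicle replicate 2 lay between the EC359 libraries. The log2 fold change was 0.10 with the widest interval of the 9, from -0.09 to 0.30, and an adjusted p of 0.533. Without vehicle replicate 1 it was 0.0045, and without vehicle replicate 2 it was 0.21.

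SRXN1, which encodes sulfiredoxin, the enzyme that restores overoxidized peroxiredoxins, lies on chromosome 20 from 627259 to 633844. It had 5119 and 5278 normalized counts with vehicle and 4804 and 4741 with EC359. Both EC359 libraries lay below both vehicle libraries. The mean was 5198 ± 112 in vehicle libraries and 4773 ± 45 under EC359 (SD, n = 2 each), a difference of -8.19%. With a log2 fold change of -0.12 (standard error 0.036, 95% interval -0.20 to -0.044), SRXN1 had the lowest adjusted p of the 9 genes, 0.079 in the edgeR quasi-likelihood fit, which did not pass 0.01. By p it stood at rank 979 of all tested genes. No 50-base window of SRXN1 was shared with genes elsewhere.

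PGD and ME1 both make NADPH, the electron donor that the reductases of this pathway use. PGD, the 6-phosphogluconate dehydrogenase of the pentose phosphate pathway, lies on chromosome 1 from 10458649 to 10480568. It had 5967 and 5984 normalized counts with vehicle and 5600 and 5571 with EC359. The replicates lay close together and the treatments did not overlap. Its log2 fold change was -0.097 (standard error 0.033, 95% interval -0.17 to -0.023) at an adjusted p of 0.125. Of its 50-base windows, 5.81% also occur elsewhere, in the pseudogene PGDP1. ME1, the cytosolic malic enzyme, lies on chromosome 6 from 83920121 to 84140770. It had 1034 and 1004 normalized counts with vehicle and 1083 and 1134 with EC359. Here both EC359 libraries were the higher ones. The log2 fold change was 0.12, with a 95% interval from -0.012 to 0.25 and an adjusted p of 0.272.

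**Figure D2:**
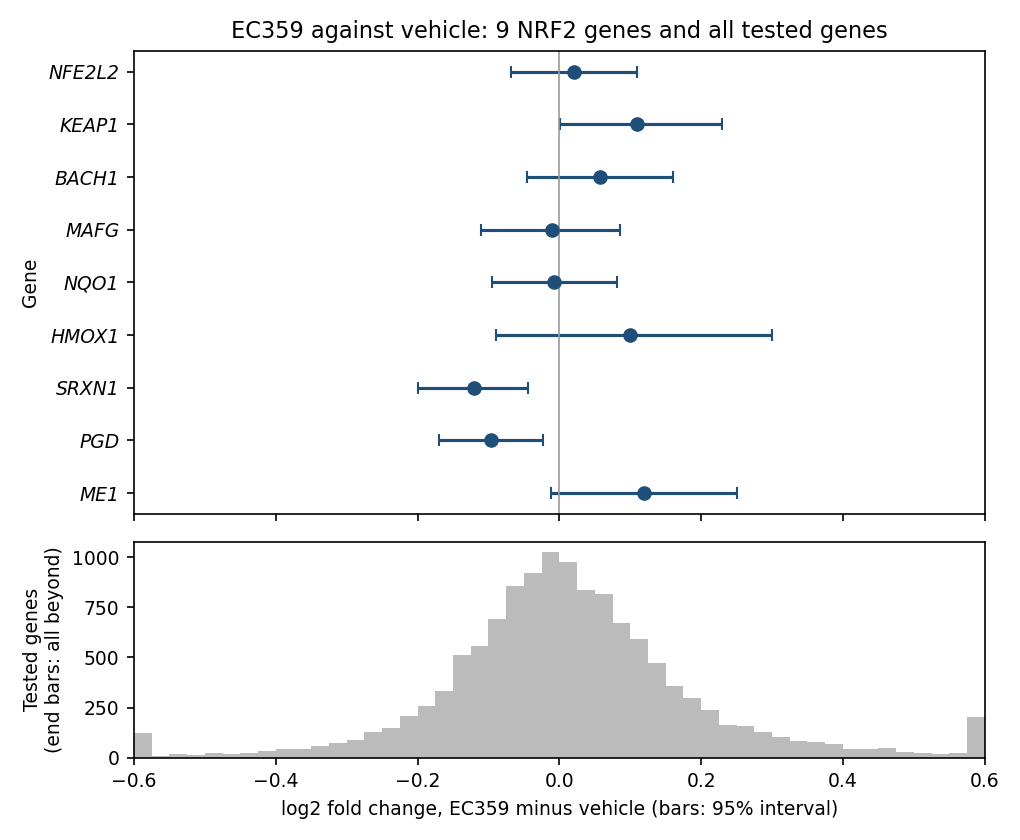
Log2 fold change of EC359 over vehicle for the 9 genes with its 95% interval (upper panel) above the number of tested genes at each log2 fold change, with all genes beyond ±0.6 in the end bars (lower panel). The intervals of SRXN1 and PGD lie below 0 and that of KEAP1 starts at 0.0016, while the other 6 contain 0.

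The 5 targets did not share a direction. HMOX1 and ME1 had higher means with EC359, SRXN1 and PGD had lower means, and NQO1 was at the vehicle level. In 6 of the 9 genes the vehicle and EC359 libraries did not overlap, 4 with the EC359 libraries higher and 2 with them lower. The same separation was found in 51.5% of all tested genes. Of the genes with a promoter match shown above, KEAP1 and ME1 had higher means and PGD a lower one, and none was called. A link between match and direction was not tested. Summed over the 5 targets, normalized counts were 15677 and 15888 with vehicle and 15093 and 15066 with EC359, a difference of -4.46% that rests mainly on SRXN1 and PGD, the most abundant of the 5. No test was made of this sum, because the genes in it were chosen with earlier results known.

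Levels were compared between genes as normalized counts per kilobase of the longest annotated transcript. PGD was highest, between 2456 and 2639 over the 4 libraries, followed by SRXN1 between 1875 and 2088 and NQO1 between 1197 and 1219. KEAP1 came next between 670 and 760, then NFE2L2 between 595 and 612, MAFG between 459 and 471 and BACH1 between 375 and 402. HMOX1, between 286 and 342, and ME1, between 301 and 340, stood lowest and overlapped each other. All other neighbours in this order were apart in every library. The place of NFE2L2 depended on the length used. With the canonical transcript of 2446 bases in place of the longest one of 5104 bases, a choice made after seeing the data, it stood between SRXN1 and NQO1, between 1241 and 1276 normalized counts per kilobase, with NQO1 between 1200 and 1222.

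**Figure D3:**
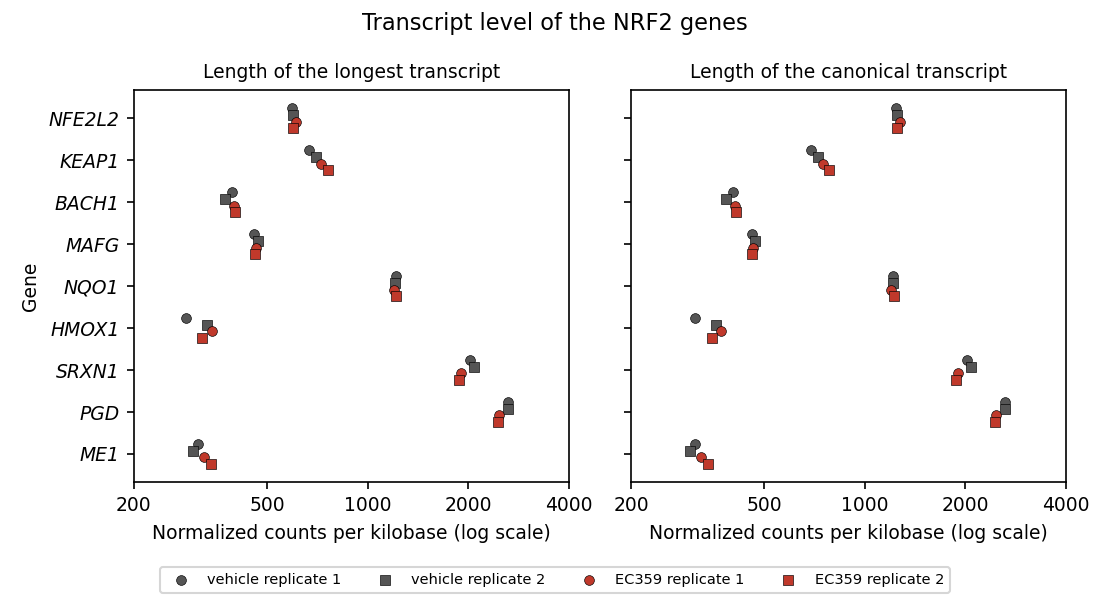
Normalized counts per kilobase on a log scale for the 9 genes in the 4 libraries, with the longest (left) or the canonical (right) annotated transcript as length; grey marks are vehicle and red marks EC359. The libraries of a gene lie close together beside the distance from PGD, near 2549 on average, to HMOX1 and ME1, near 319.

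The wider pathway was described with 4 lists of genes written from general knowledge, without the 9 members. Of their 64 genes, 58 were tested, and 1 was called higher (0.299% of all tested genes were) and 0 were called lower (0.795% of all tested genes were) in the edgeR quasi-likelihood fit. At an unadjusted p under 0.05, 7 passed with a higher and 13 with a lower mean, beside 10.7% and 11% of all tested genes. The treatments did not overlap in 32 of the 58 genes, beside 51.5% of all tested genes. The genes named from each list are those with its lowest adjusted p values, so that their separation follows from how they were picked. The median log2 fold change over the 58 genes was -0.0078. The 6 genes that were not tested had 10 or fewer counts in each library. Among them were AKR1C1, AKR1C2, AKR1B10 and ALDH3A1, aldo-keto reductase and aldehyde dehydrogenase genes that NRF2 induces in many carcinoma cells, and ALDH3A1 had no count at all.

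Turnover of NRF2 was covered by 15 genes of the KEAP1, beta-TrCP and SYVN1 ligases and their partners, with a median log2 fold change of -0.0035. SQSTM1, the autophagy receptor p62, which sequesters KEAP1 and is itself an NRF2 target, was the 1 called gene of all 4 lists. SQSTM1 lies on chromosome 5 from 179233398 to 179265078. It had 7000 and 7279 normalized counts with vehicle and 8262 and 8863 with EC359. The lower EC359 library stood above the higher vehicle library, and SQSTM1 rose by 0.26 on the log2 scale (standard error 0.041, 95% interval 0.17 to 0.35, adjusted p = 0.00776). The call was lost with no filter on low counts (adjusted p = 0.0155) and with either EC359 library left out (adjusted p = 0.275 without replicate 1 and 0.301 without replicate 2), while the log2 fold change stayed between 0.21 and 0.31. MGAT4B, whose exons overlap SQSTM1 on the opposite strand, had a log2 fold change of 0.12 (adjusted p = 0.156). NEDD8, the ubiquitin-like protein that activates CUL3, had a log2 fold change of -0.19 (adjusted p = 0.0514), SYVN1, a ligase of the endoplasmic reticulum that also degrades NRF2, 0.18 (adjusted p = 0.0986), and DPP3, which binds KEAP1 in competition with NRF2, -0.11 (adjusted p = 0.134). None of these 3 was called, and exons of SYVN1 overlap FAU on the same strand and MRPL49 on the opposite one.

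The partners and relatives of NRF2 and MAFG numbered 6, of which 5 were tested and 0 were called, against 1.09% of all tested genes. Of these 5, 3 were lower at an unadjusted p under 0.05 (11% of all tested genes) and 0 higher (10.7%). Their median log2 fold change was -0.18. MAFF, another small MAF protein, had 2142 and 2198 normalized counts with vehicle and 1853 and 1974 with EC359 (log2 fold change -0.18, adjusted p = 0.0703). NFE2L3, the NRF2 relative NRF3, had 2064 and 1998 with vehicle and 1855 and 1716 with EC359 (log2 fold change -0.19, adjusted p = 0.0781). NFE2L3 exons overlap HNRNPA2B1 on the opposite strand, whose own log2 fold change was -0.25 (adjusted p = 0.00584). NFE2L1, the relative NRF1 that controls proteasome genes, had 7807 and 8074 with vehicle and 7502 and 7260 with EC359 (log2 fold change -0.11, adjusted p = 0.116). NFE2L3 also shares 5.39% of its 50-base windows with the pseudogene NFE2L3P1. BACH2 was low, between 104 and 134 normalized counts (log2 fold change -0.23, adjusted p = 0.419), and NFE2, the erythroid relative, had 1 count in all.

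NADPH supply beyond PGD and ME1 was covered by 17 genes, of which 16 were tested and 0 called, against 1.09% of all tested genes. The median log2 fold change was -0.032. At an unadjusted p under 0.05, 3 had lower means (11% of all tested genes) and 0 had higher means (10.7%). The treatments did not overlap in 7 of the 16 genes, beside 51.5% of all tested genes. IDH1, the cytosolic isocitrate dehydrogenase, had 1909 and 1843 normalized counts with vehicle and 1718 and 1676 with EC359 (log2 fold change -0.14, adjusted p = 0.123). TALDO1 and TKT, which link the pentose phosphate pathway back to glycolysis, had log2 fold changes of -0.098 and -0.08 (adjusted p = 0.165 and 0.225), and RPE, of the same pathway, had -0.089 (adjusted p = 0.282). NNT, the mitochondrial transhydrogenase, had 2634 and 2580 normalized counts with vehicle and 2815 and 2710 with EC359, and was picked after its values were seen, as a gene of this list with EC359 the higher. Of the 50-base windows of RPE, 12.7% are shared with RPEL1.

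Heme, quinone and aldehyde handling and other targets were covered by 26 genes. Of these, 22 were tested and 0 called, against 1.09% of all tested genes. At an unadjusted p under 0.05, 5 had higher means (10.7% of all tested genes) and 3 lower means (11%). The treatments did not overlap in 12 of the 22 genes, beside 51.5% of all tested genes. The median log2 fold change was 0.023. EPHX1, the microsomal epoxide hydrolase, had 598 and 649 normalized counts with vehicle and 731 and 779 with EC359 (log2 fold change 0.28, adjusted p = 0.0644). AKR1A1, an aldehyde reductase that uses NADPH, had 1842 and 1800 with vehicle and 1528 and 1607 with EC359 (log2 fold change -0.22, adjusted p = 0.043). HMOX2, the constitutive heme oxygenase, had a log2 fold change of -0.15 (adjusted p = 0.126), against 0.10 for HMOX1. OSGIN1, a low-count gene with 109 and 142 normalized counts with vehicle and 163 and 178 with EC359, had the largest log2 fold change of the 4 lists, 0.44 with a 95% interval from 0.098 to 0.78 (adjusted p = 0.133). Its log2 fold change was 0.26 without vehicle replicate 1 and 0.64 without vehicle replicate 2. ABCC2, a drug and conjugate exporter picked after its values were seen, had 0.31 (adjusted p = 0.192 in the edgeR quasi-likelihood fit). Without vehicle replicate 1, ABCC2 had 0.38 and stood above OSGIN1. Exons of OSGIN1 overlap MLYCD on the same strand. None of these genes was called, ABCC2 included.

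**Figure D4:**
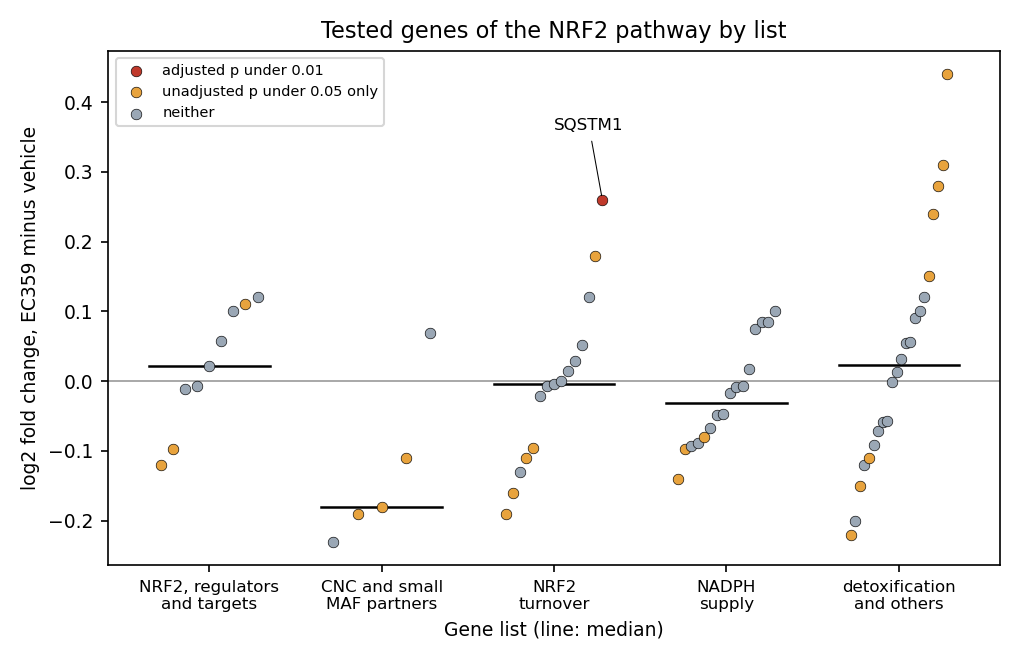
Log2 fold change of EC359 over vehicle for every tested gene of the 9-gene set and of the 4 pathway lists, ordered within each list, with lines at the medians; red marks an adjusted p under 0.01, orange an unadjusted p under 0.05 only and grey neither. SQSTM1 is the single red point, at 0.26, and the partners list has the lowest median, -0.18, over 5 genes.

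Genes whose profile over the 4 libraries was nearest to that of NFE2L2 were sought by the root mean square difference in centred log2 CPM among genes with at least 50 normalized counts. They were USP10, VCPIP1 and TPST1, at 0.00055, 0.0016 and 0.0035, with log2 fold changes of 0.02, 0.02 and 0.019. For HMOX1 they were LOC100287765, GMCL1L and SALL2, at 0.0083, 0.0098 and 0.011, and like HMOX1 they were lowest in vehicle replicate 1. Over 4 libraries such likeness is a description only.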

How the data were processed

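RNA-seq of 4 ES2 libraries, 2 with vehicle and 2 with EC359, was used. Per the labels and the study's methods, libraries were made with a stranded mRNA kit and read as single ends, and the authors aligned reads to hg19 with TopHat2 2.0.8b after CASAVA 1.8.2, used the RefSeq gene set and took reads per gene from HTSeq, whose version is not given in the sources used here. The deposited tables hold raw counts, 1 row a gene symbol. Each table also has 5 rows that name no gene. They were left out of library sizes, and reads on no gene were 10.9% to 12% and ambiguous reads 0.852% to 0.879% of uniquely aligned reads.

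Genes were filtered with filterByExpr (minimum count 10, minimum total 15), scaled by TMM and fitted in edgeR 4.0.16 in R 4.3.3 (glmQLFit and glmQLFTest, no replicate block), with Benjamini-Hochberg adjustment over 12706 genes and a threshold of 0.01 without a minimum fold change. Standard errors were derived from the log2 fold change and its F statistic, and 95% intervals use the t distribution of the fit. The fit was also run on simulated data, with planted changes larger than those of the members, which ran from -0.12 to 0.12 (log2). The outcome of that run is not reported here. Because of the size of the planted changes, it cannot show how the fit performs for changes as small as those of the members. Replicates differed by more than sampling noise (chi-square per degree of freedom 3.78 for vehicle and 2.69 for EC359), so each counted as 1 sample. The p-values measure the spread between these libraries only, and that spread was largely shared across genes. Of 10.3 degrees of freedom for a gene (median), 8.28 came from the spread over all genes.

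Places, exon overlaps and transcript lengths came from GENCODE lifted to GRCh37, the assembly of hg19, and 95.9% of tested genes had a length. GENCODE spans and exons can differ from the RefSeq genes on which reads were counted. Whether the stated places and overlaps hold for those RefSeq genes was not tested. Promoters came from RefSeq. Named genes were the 9 members, the called genes and the 4 lowest adjusted p values of each list, and the 3 profiles nearest to NFE2L2 and to HMOX1. NNT and ABCC2 were added after their values were seen. Members and lists were chosen with earlier results of these data known. Alternatives were RLE, upper-quartile and no factors, voom of limma 3.58.1, the exact test of edgeR, DESeq2 1.42.0, other filters and thresholds, a replicate block, removal of trends against length or GC content, and leaving out each library. A planned search of protein sequences for KEAP1-binding motifs was not made here, and some marker genes are not reported here.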

Additional observations from a re-analysis of the deposited data

How the results depend on the processing

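Over the alternatives, 153 values of the log2 fold change of the 9 genes were compared with those reported, and 144 kept their direction and their side of the threshold. Values that changed sign were those nearest to 0. MAFG had 0.013 with total counts only and 0.010 with the GC trend removed, and from -0.028 to 0.0021 over fits that left out a library. NQO1 had 0.017 with total counts only and 0.0031 with the length trend removed, and from -0.019 to 0.0053 with a library left out. In the fits of all 4 libraries without a replicate block, 0 of the 9 genes passed an adjusted p of 0.01. None passed 0.05 in the reported fit, but SRXN1 did with edgeR's exact test (adjusted p = 0.0438). SRXN1 also passed 0.05 in the quasi-likelihood test with the GC trend removed (adjusted p = 0.0239). At an unadjusted p under 0.01 in the reported fit, SRXN1 passed (1 of the 9 genes), beside 1255 of all 12706 tested genes.

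The number of called genes, 139 in all and 1 in the 4 lists, depended on the processing. Total counts only gave 52 higher and 68 lower genes, against 38 and 101. DESeq2 called 230 genes, edgeR's exact test 568 with 2 in the lists, no filter 61 with 0 in the lists, removal of the GC trend 1026 with 7, an adjusted p under 0.05 549 with 2, and an unadjusted p under 0.01 1255 with 7. Leaving out a library gave from 0 to 539 genes, from 0 to 0 members and from 0 to 1 list genes. Without EC359 replicate 1 edgeR's quasi-likelihood test called 0 genes, with 1460 at an unadjusted p under 0.05, and without EC359 replicate 2 it called 2. A lone library was then assumed to vary like those of the other treatment. The cause of these changes was not tested.

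The replicate numbers are shared between treatments, but no source says that a number marks a common batch, and deviations of same-numbered libraries correlated at 0.112 across genes. A replicate block called 1539 genes, 10 in the lists and 2 of the 9 members, both lower with EC359, SRXN1 (adjusted p = 0.00203) and PGD (adjusted p = 0.00839). HMOX1, with the fewest counts, had the least precise value of the 9.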

Other observations

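The ratio of NFE2L2 to KEAP1 transcript, as normalized counts per kilobase of the longest transcript, was 0.888 and 0.851 with vehicle and 0.843 and 0.787 with EC359, and 1.8, 1.72, 1.7 and 1.59 with canonical lengths. The treatments did not overlap, and EC359 replicate 1 lay close to vehicle replicate 2. The ratio of NFE2L2 to BACH1 overlapped, between 1.49 and 1.59 with the longest transcripts. That of NFE2L2 to MAFG did not overlap, by a narrow margin, and was higher with EC359. With canonical lengths it was 2.7 and 2.65 with vehicle and 2.75 and 2.72 with EC359. Among the NADPH-making enzymes, PGD over ME1 was 8.5 and 8.77 with vehicle and 7.61 and 7.23 with EC359 on the per-kilobase scale, since PGD had lower and ME1 higher values. These ratios were formed after the values of the genes had been seen, and no test was made of them.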
